A study of Mus musculus with 9 samples.

Results

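The 10 genes described here encode amino acid transporters of the kidney proximal tubule, namely Slc3a1, Slc7a9, Slc7a13, Slc6a19, Slc6a18, Slc6a20a, Slc6a20b, Slc1a1, Slc7a7 and Slc7a8. They were taken by symbol, with no measured value in the rule, as 10 of the 17963 genes in the deposited table. The set was chosen with earlier results of these data known. All 10 passed the filter on low counts, which left 13954 genes for testing. RNA was sequenced from kidney cortex of wild-type (WT) mice on day 4, with 3 libraries in each of 3 groups. The YSJZD group had cisplatin, a platinum anticancer drug that injures the kidney tubule, by the peritoneal route and Yishen Jiangzhuo decoction, a herbal medicine, into the stomach. In the cisplatin group the same drug was given with pure water into the stomach, and in the control group saline took the place of the drug, again with pure water. The labels used here give no dose, strain, age or sex. They do not say whether the 3 libraries of a group came from separate mice, so each p-value measures the spread between libraries, which may be technical.

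The proximal tubule takes back nearly all filtered amino acids. Carriers in the brush border bring them into the cell, many of them driven by the sodium gradient, and carriers in the basolateral membrane pass them on to the blood. Several work as pairs: a light chain that forms the pore is held in the membrane by a heavy chain, or a brush-border carrier needs an accessory protein to reach the surface, and inherited loss of these carriers causes disorders such as cystinuria, Hartnup disorder and lysinuric protein intolerance.

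Most of these transporters were at a fraction of their control level with cisplatin, from 0.303% for Slc7a13 to 62.2% for Slc7a8 among those that fell, and 6 of them were higher again in the YSJZD group. In cisplatin against control, edgeR's quasi-likelihood test called 8 of the 10 genes at a Benjamini-Hochberg adjusted p under 0.05, the threshold used throughout, where 54.6% of all tested genes were called. Of the 10, 7 fell (Slc7a13, Slc6a20b, Slc1a1, Slc3a1, Slc7a7, Slc7a9 and Slc7a8), against 26.0% of all genes lower, and Slc6a18 rose, against 28.6% of all genes higher. The median log2 fold change was -1.53 over the 10 genes and 0.04 over all tested genes. Since the set was chosen with earlier results known, the shares of all genes describe it and do not test it.

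In YSJZD against cisplatin, 6 of the 10 genes were called, all higher (Slc7a13, Slc6a20b, Slc7a7, Slc7a9, Slc3a1 and Slc1a1), where 35.4% of all genes were called, 17.4% higher and 18.0% lower. The median was 1.44 on the log2 scale over the 10 genes and -0.01 over all genes. In YSJZD against control, 4 of the 10 were called, where 19.3% of all genes were called. Of these 4, Slc7a13, Slc6a20b and Slc1a1 fell, against 9.37% of all genes lower, and Slc6a18 rose, against 9.93% of all genes higher. These comparisons share libraries, so the counts are not independent of each other. In bulk tissue, fewer proximal tubule cells and less RNA per cell cannot be told apart.

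**Figure D1:**
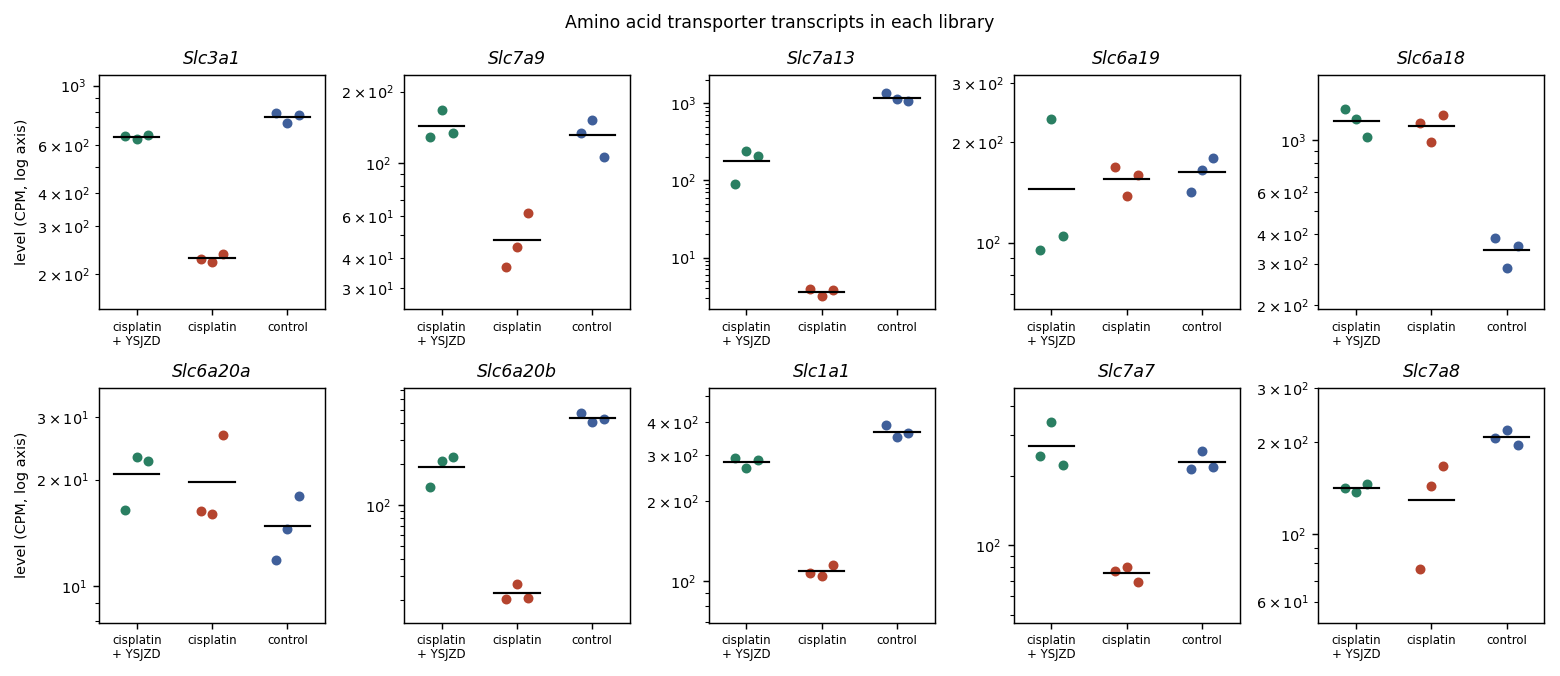
Level of each transporter in CPM (log axis) in every library, with the cisplatin + YSJZD, cisplatin and control groups from left to right; points are libraries and bars are group means. Slc7a13 and Slc6a20b have the widest separation between groups, Slc6a18 is high in both groups that received cisplatin, and the groups overlap for Slc6a19 and Slc6a20a.

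**Figure D2:**
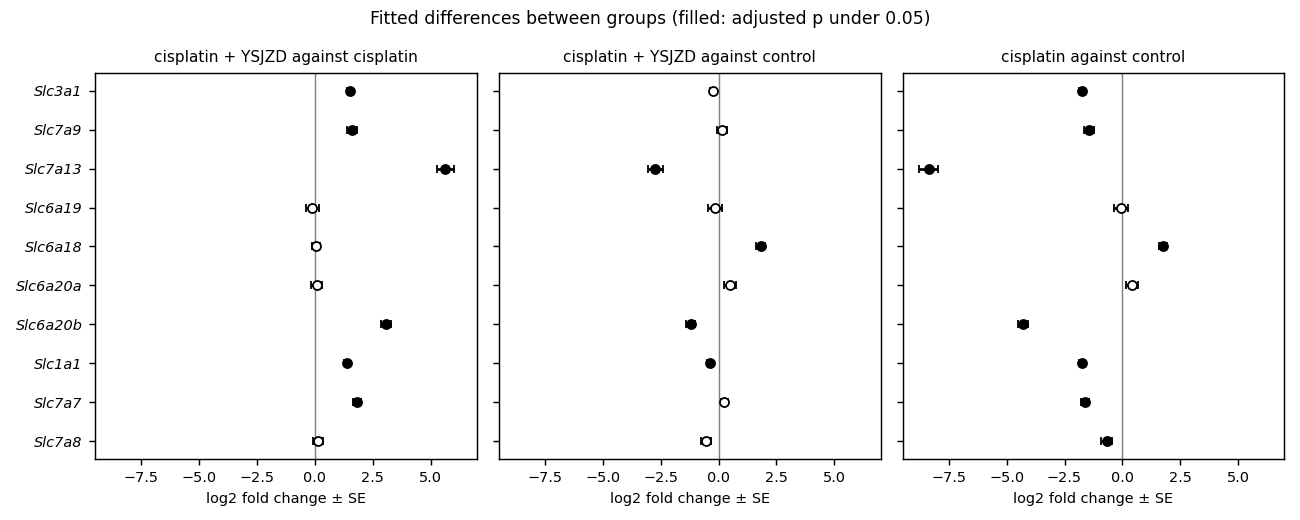
Fitted log2 fold change of each transporter with its standard error in the 3 comparisons; filled points have an adjusted p under 0.05. Values in cisplatin against control run from -8.37 for Slc7a13 to 1.74 for Slc6a18.

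Slc3a1 (Entrez gene 20532) encodes rBAT, the heavy chain that brings the brush-border cystine carriers to the membrane. Its level in CPM, counts scaled to a common library size with TMM factors, was 652, 633 and 653 in the YSJZD libraries, 228, 222 and 236 in the cisplatin libraries, and 794, 726 and 777 in the control libraries. The 3 groups did not overlap, and the replicates of each group lay close together. Its log2 fold change was -1.74 ± 0.12 (SE, adjusted p = 3.22e-06) in cisplatin against control and 1.498 ± 0.12 (adjusted p = 5.03e-05) in YSJZD against cisplatin. In YSJZD against control it was -0.24 ± 0.12 (adjusted p = 0.176), which did not pass, although DESeq2 gave an adjusted p of 0.0130 for it. The mean was 84.4% of control with YSJZD and 29.9% of control with cisplatin.

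Slc7a9 (Entrez gene 30962), the light chain that pairs with rBAT to exchange cystine and dibasic amino acids and is mutated in cystinuria, followed a like course. It stood at 129, 168 and 134 CPM in the YSJZD libraries, 36.5, 44.4 and 61.7 CPM in the cisplatin libraries, and 134, 152 and 106 CPM in the control libraries. All cisplatin libraries lay below all others, and the YSJZD and control ranges overlapped. Slc7a9 fell by 1.46 ± 0.22 on the log2 scale in cisplatin against control (adjusted p = 0.000282) and rose by 1.596 ± 0.22 in YSJZD against cisplatin (adjusted p = 0.000583). Its difference in YSJZD against control was 0.13 ± 0.21, with an interval of 2 standard errors to either side from -0.29 to 0.56.

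Slc7a13 (Entrez gene 74087) encodes the other known partner of rBAT, a carrier of acidic amino acids and cystine in the late (S3) segment of the mouse proximal tubule. It was at 90.7, 243 and 206 CPM in the YSJZD libraries, 3.85, 3.20 and 3.78 CPM in the cisplatin libraries, and 1350, 1153 and 1076 CPM in the control libraries. The groups stood far apart, and the cisplatin values rest on 71, 56 and 61 expected counts. Cisplatin lowered it 330-fold against control, a log2 fold change of -8.37 ± 0.41 (adjusted p = 1.31e-06). YSJZD libraries were 49.7-fold above cisplatin libraries (5.64 ± 0.37, adjusted p = 4.18e-05) and still 6.64-fold below control (-2.73 ± 0.31, adjusted p = 0.000412). Their mean was 15.1% of control, against 0.303% of control with cisplatin.

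FPKM, the deposited values per length of transcript, allow partners to be set beside each other within a library. Slc7a9 per Slc3a1 was 0.301 ± 0.0514 with YSJZD, 0.284 ± 0.0755 with cisplatin and 0.230 ± 0.0486 in control (SD, n = 3 each), with overlapping groups (exact permutation test, two-sided, p = 0.5 for cisplatin against control). Slc7a13 per Slc3a1 was 0.151, 0.417 and 0.343 with YSJZD, 0.0183, 0.0156 and 0.0174 with cisplatin, and 1.85, 1.73 and 1.505 in control. Control libraries thus held more Slc7a13 than Slc3a1 RNA per length, and the other groups held less. The groups did not overlap in any comparison of this ratio, and the exact p of 0.1 is the smallest that 3 against 3 libraries can give (adjusted p = 0.141 over the 24 ratio tests).

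**Figure D3:**
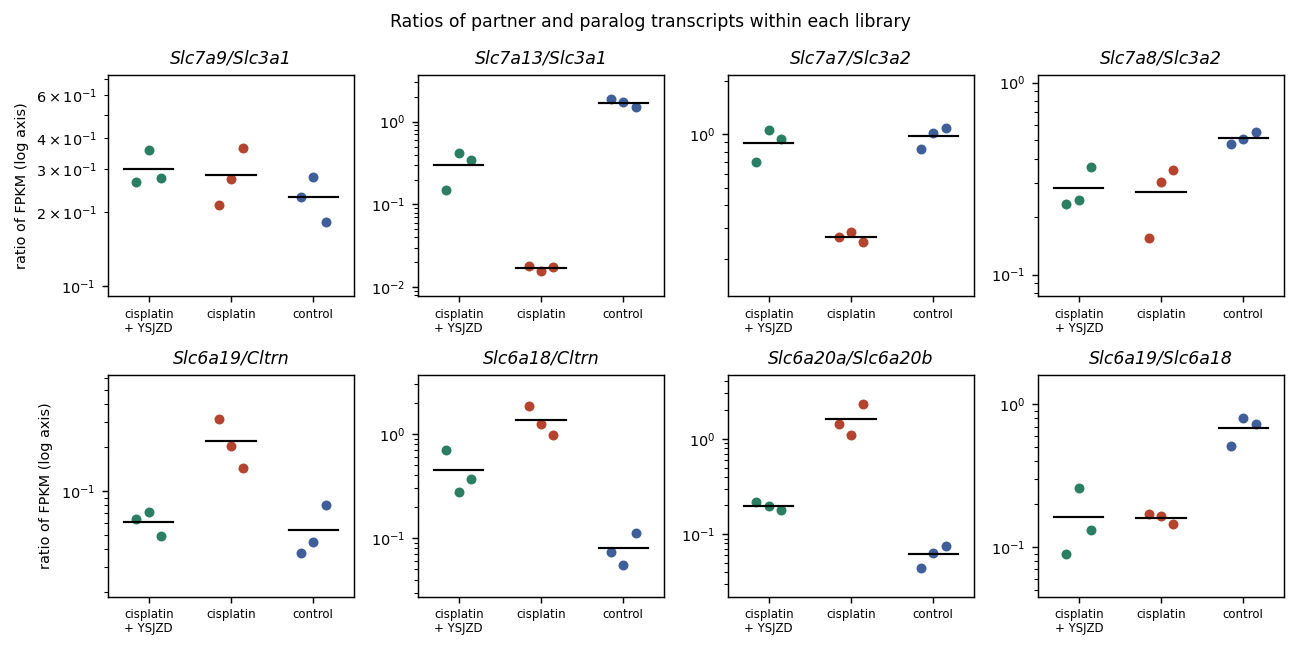
Ratio of FPKM values of 8 gene pairs within each library (log axis), with the cisplatin + YSJZD, cisplatin and control groups from left to right; points are libraries and bars are group means. Slc7a9 per Slc3a1 overlaps between groups, whereas Slc7a13 per Slc3a1 and Slc6a20a per Slc6a20b have no overlap between any groups.

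The RefSeq table of mouse promoters (build GRCm38.p6, 250 bases before to 50 bases after a start) held 13 windows of 8 of the 10 genes, and none for Slc7a13 or Slc6a18. Windows were searched on both strands for CAAAGTC, a core of the HNF4 site, and for TGATGCA, a core of the ATF4 composite element of amino acid stress. They are shown for Slc3a1, which holds the first, and for the paralogs Slc6a20a and Slc6a20b, whose patterns differed. The capitals in the Slc3a1 window mark the matched letters.
Slc3a1, chr17:85028097-85028396, plus strand: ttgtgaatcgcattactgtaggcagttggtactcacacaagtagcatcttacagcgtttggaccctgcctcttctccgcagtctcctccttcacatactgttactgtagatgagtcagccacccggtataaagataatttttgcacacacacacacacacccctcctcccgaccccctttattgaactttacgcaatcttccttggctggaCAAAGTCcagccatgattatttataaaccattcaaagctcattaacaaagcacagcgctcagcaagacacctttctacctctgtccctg
Slc6a20a, chr9:123678783-123679082, minus strand: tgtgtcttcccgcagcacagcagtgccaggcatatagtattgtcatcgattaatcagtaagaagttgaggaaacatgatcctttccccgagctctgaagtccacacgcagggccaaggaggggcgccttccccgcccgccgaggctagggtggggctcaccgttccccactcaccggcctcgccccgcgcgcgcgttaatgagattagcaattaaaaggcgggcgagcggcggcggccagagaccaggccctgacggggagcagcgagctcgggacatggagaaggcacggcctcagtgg
Slc6a20b, chr9:123632489-123632788, minus strand: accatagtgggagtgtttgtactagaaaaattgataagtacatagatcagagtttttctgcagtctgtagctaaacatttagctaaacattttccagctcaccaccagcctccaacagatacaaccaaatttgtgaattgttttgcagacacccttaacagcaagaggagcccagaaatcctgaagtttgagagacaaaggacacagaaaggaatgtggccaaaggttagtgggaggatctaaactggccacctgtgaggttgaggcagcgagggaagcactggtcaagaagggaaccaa
In the Slc3a1 window CAAAGTC begins 39 bases before the start, and the Slc6a20a and Slc6a20b windows held neither motif. CAAAGTC was in 2 of the 13 windows, of Slc3a1 and Slc7a7. TGATGCA was in 2 of the 13, both of Slc7a7, but these 2 windows overlap and hold the same site. Windows of Slc7a7 lie on the same gene and are not independent. Over all 32851 windows of the table CAAAGTC was found in 4.44% and TGATGCA in 3.15%. A match describes letters only.

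The 4 sodium-coupled carriers of the Slc6 family did not move together. Slc6a18 was higher in both groups that received cisplatin, Slc6a20b was lower in both, and Slc6a19 and Slc6a20a were not called in any comparison. The genes lie in neighbouring pairs on the mouse genome, Slc6a18 beside Slc6a19 on chromosome 13 and Slc6a20b beside Slc6a20a on chromosome 9, each pair on the same strand.

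Slc6a19 (Entrez gene 74338) encodes B0AT1, the main brush-border carrier of neutral amino acids and the gene of Hartnup disorder. It stood at 94.9, 234 and 105 CPM in the YSJZD libraries, 169, 138 and 159 CPM in the cisplatin libraries, and 142, 165 and 179 CPM in the control libraries. YSJZD replicate 2 was above every other library and YSJZD replicates 1 and 3 were below every other library. Differences were -0.06 ± 0.30 in cisplatin against control (adjusted p = 0.873), -0.10 ± 0.30 in YSJZD against cisplatin (adjusted p = 0.810) and -0.17 ± 0.30 in YSJZD against control (adjusted p = 0.747). For cisplatin against control the interval of 2 standard errors ran from -0.66 to 0.53 on the log2 scale. Without YSJZD replicate 2, the other YSJZD libraries were lower than cisplatin (-0.63, adjusted p = 0.0215) and lower than control (-0.70, adjusted p = 0.0199). YSJZD replicate 2 also had the highest summed level of 22 other proximal tubule genes in its group, 54896 CPM, against 30283 CPM in replicate 1 and 38574 CPM in replicate 3. The part of that difference in the Slc6a19 result was not tested.

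Below the level of the gene, the deposited table splits Slc6a19 into NM_028878.3 and the predicted transcript XM_006517419.3, whose levels differed in pattern. NM_028878.3 was at 11.0, 40.4 and 14.7 FPKM with YSJZD, 9.53, 5.55 and 6.79 FPKM with cisplatin, and 20.5, 29.3 and 35.6 FPKM in control. Every cisplatin library was below every other library. XM_006517419.3 was at 19.6, 39.0 and 20.9 FPKM with YSJZD, 44.4, 37.3 and 38.5 FPKM with cisplatin, and 20.1, 22.6 and 24.5 FPKM in control, with every cisplatin library above every control library. NM_028878.3 held 25.7%, 38.9% and 30.2% of the Slc6a19 expected counts with YSJZD, 11.7%, 8.41% and 9.81% with cisplatin, and 38.5%, 44.4% and 47.2% in control.

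In a fit of all 34931 transcripts that passed the filter, made after the gene results were seen, NM_028878.3 of Slc6a19 fell by 2.16 ± 0.49 on the log2 scale in cisplatin against control (adjusted p = 0.0163), where 20.6% of all transcripts were called. It was not called in YSJZD against cisplatin (1.62 ± 0.48, adjusted p = 0.0889), where 7.09% of transcripts were called, or in YSJZD against control (-0.54 ± 0.47, adjusted p = 0.709), where 3.56% were called. Without YSJZD replicate 2, which was the highest of its group, these differences of NM_028878.3 were 0.83 and -1.33, and neither was called. XM_006517419.3 of Slc6a19 was not called in cisplatin against control (0.63 ± 0.25, adjusted p = 0.123). The call for NM_028878.3 was lost without cisplatin replicate 2 (adjusted p = 0.0654), cisplatin replicate 3 (0.0590) or control replicate 3 (0.0508). RSEM assigns reads that fit both transcripts by its own estimate, an error that the standard errors here do not hold.

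**Figure D4:**
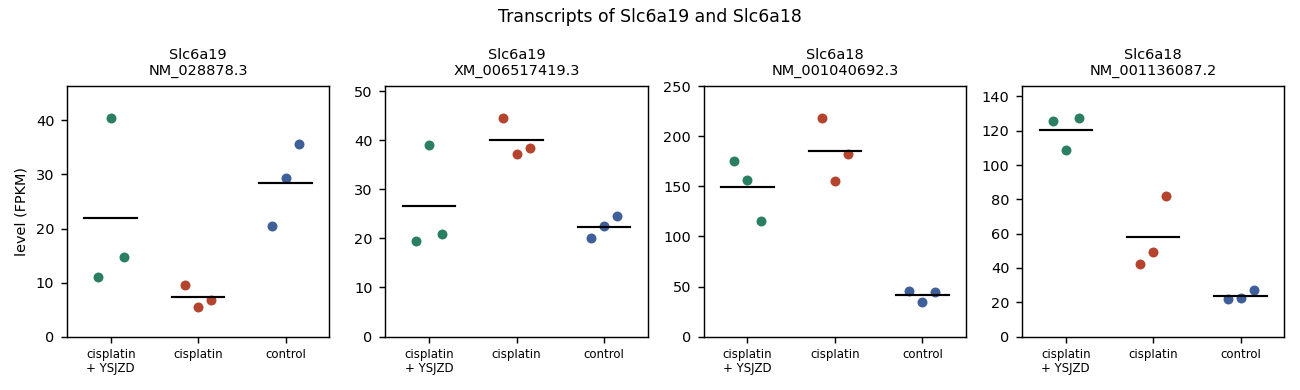
FPKM of the transcripts of Slc6a19 and of the 2 most abundant transcripts of Slc6a18 in every library, with the cisplatin + YSJZD, cisplatin and control groups from left to right; points are libraries and bars are group means. NM_028878.3 is lowest with cisplatin, while XM_006517419.3 is higher in every cisplatin library than in any control library.

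Slc6a18 (Entrez gene 22598) encodes B0AT3, a carrier of glycine, alanine and other neutral amino acids in the later proximal tubule of the mouse. It was at 1346, 1226 and 1031 CPM in the YSJZD libraries, 1179, 977 and 1279 CPM in the cisplatin libraries, and 384, 288 and 354 CPM in the control libraries. The YSJZD and cisplatin ranges overlapped, and both lay above control. Slc6a18 rose 3.35-fold in cisplatin against control (1.74 ± 0.18 on the log2 scale, adjusted p = 2.77e-05) and 3.51-fold in YSJZD against control (1.81 ± 0.18, adjusted p = 0.000169). Between YSJZD and cisplatin the difference was 0.07 ± 0.17 (adjusted p = 0.781), with an interval of 2 standard errors from -0.27 to 0.41. No other gene of the 10 passed the test with a higher level in cisplatin than in control libraries.

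Of the 6 deposited transcripts of Slc6a18, NM_001040692.3 and NM_001136087.2 carried most counts. NM_001040692.3 was at 175, 157 and 116 FPKM with YSJZD, 218, 155 and 182 FPKM with cisplatin, and 45.7, 34.1 and 44.8 FPKM in control. NM_001136087.2 was at 125, 109 and 127 FPKM with YSJZD, 42.2, 49.3 and 82.0 FPKM with cisplatin, and 21.9, 22.2 and 26.9 FPKM in control. For Slc6a18, NM_001040692.3 rose by 1.94 ± 0.22 in cisplatin against control (adjusted p = 0.000740) and by 1.66 ± 0.22 in YSJZD against control (adjusted p = 0.00875), and was not called in YSJZD against cisplatin (-0.28 ± 0.21). NM_001136087.2 of Slc6a18 rose by 2.16 ± 0.27 in YSJZD against control (adjusted p = 0.00703), and its calls in cisplatin against control (1.10 ± 0.26, adjusted p = 0.0200) and in YSJZD against cisplatin (1.06 ± 0.26, adjusted p = 0.0494) were lost when single libraries were left out. Without a control library the first had an adjusted p of 0.0703, 0.0765 or 0.0514. The second lost its call without any single library other than cisplatin replicate 3, with an adjusted p from 0.0788 to 0.151.

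The Slc6a20 paralogs differed: Slc6a20b fell with cisplatin and Slc6a20a was not called. Both are mouse relatives of the human gene SLC6A20, which encodes a sodium-coupled carrier of proline and other imino acids. Slc6a20b (Entrez gene 22599) was at 136, 211 and 225 CPM in the YSJZD libraries, 20.5, 26.2 and 20.6 CPM in the cisplatin libraries, and 479, 411 and 427 CPM in the control libraries, with no overlap between groups. It was 19.6-fold lower in cisplatin against control (-4.29 ± 0.22, adjusted p = 1.62e-06), 8.49-fold higher in YSJZD against cisplatin (3.09 ± 0.21, adjusted p = 4.18e-05) and 2.30-fold lower in YSJZD against control (-1.20 ± 0.20, adjusted p = 0.00266). Slc6a20a (Entrez gene 102680) was at 16.5, 23.2 and 22.6 CPM with YSJZD, 16.3, 15.98 and 26.8 CPM with cisplatin, and 11.9, 14.5 and 18.0 CPM in control. All groups overlapped, and its difference was 0.41 ± 0.25 in cisplatin against control (adjusted p = 0.185) and 0.49 ± 0.25 in YSJZD against control (adjusted p = 0.204).

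Slc6a20a per Slc6a20b in FPKM was 0.218, 0.198 and 0.180 with YSJZD, 1.43, 1.09 and 2.34 with cisplatin, and 0.0444, 0.0635 and 0.0760 in control. The cisplatin libraries therefore held more Slc6a20a than Slc6a20b RNA per length, and the order was the other way in YSJZD and control libraries. The exact p was 0.1 in each comparison, the smallest possible. The transcripts of these genes share sequence: 19.5% of the 31-base words of Slc6a20a also occur in Slc6a20b, against 12.8% the other way, so a part of their reads can be split between them by estimate. With the counts of both genes added, the sum still fell by 3.43 on the log2 scale in cisplatin against control and rose by 2.33 in YSJZD against cisplatin.

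Slc1a1 (Entrez gene 20510) encodes EAAC1, the brush-border carrier of glutamate and aspartate. It stood at 293, 267 and 288 CPM in the YSJZD libraries, 107, 104 and 115 CPM in the cisplatin libraries, and 388, 351 and 362 CPM in the control libraries. The 3 groups did not overlap. Slc1a1 fell 3.38-fold in cisplatin against control (-1.76 ± 0.12, adjusted p = 3.06e-06) and rose 2.60-fold in YSJZD against cisplatin (1.38 ± 0.12, adjusted p = 6.07e-05). At 77.0% of the control level with YSJZD, it was also lower in YSJZD against control (-0.38 ± 0.12, adjusted p = 0.0455), a call that was lost without the filter (adjusted p = 0.0698), with library totals (0.247) and on leaving out any library other than cisplatin replicate 3.

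The 2 carriers of the basolateral membrane differed from each other. Slc7a7 (Entrez gene 20540) encodes y+LAT1, which releases dibasic amino acids to the blood and is mutated in lysinuric protein intolerance. It was at 243, 341 and 222 CPM in the YSJZD libraries, 77.1, 80.1 and 69.3 CPM in the cisplatin libraries, and 214, 256 and 218 CPM in the control libraries. Cisplatin libraries were below all others, and YSJZD and control libraries overlapped. Slc7a7 fell 3.04-fold in cisplatin against control (-1.602 ± 0.18, adjusted p = 4.57e-05) and rose 3.56-fold in YSJZD against cisplatin (1.83 ± 0.18, adjusted p = 0.000108). Between YSJZD and control the difference was 0.23 ± 0.17 (adjusted p = 0.397).

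Slc7a8 (Entrez gene 50934) encodes LAT2, an exchanger of neutral amino acids. It was at 142, 137 and 146 CPM in the YSJZD libraries, 76.9, 144 and 166 CPM in the cisplatin libraries, and 207, 219 and 196 CPM in the control libraries. Cisplatin replicate 1 was the lowest of the 9 libraries, the other cisplatin libraries lay within or above the YSJZD range, and control lay above both groups. Slc7a8 fell 1.61-fold in cisplatin against control (-0.68 ± 0.23, adjusted p = 0.0294), and this call was lost without any single control library (adjusted p = 0.0666, 0.0780 and 0.0508), with library totals (0.0899) and with the 6 libraries compared (0.0551). It did not pass in YSJZD against control (-0.55 ± 0.23, adjusted p = 0.130). The same difference had an adjusted p of 0.0142 without cisplatin replicate 1 and of 0.0143 with the 6 libraries compared. Slc7a8 was not called in YSJZD against cisplatin (0.14 ± 0.23).

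The partners of these carriers were also measured. Slc3a2, the CD98 heavy chain that anchors y+LAT1 and LAT2, was at 330 ± 67.2 CPM with YSJZD, 297 ± 14.1 CPM with cisplatin and 254 ± 28.6 CPM in control (SD, n = 3 each), and was not called in any comparison. Slc7a7 per Slc3a2 in FPKM was 0.698, 1.06 and 0.938 with YSJZD, 0.267, 0.285 and 0.248 with cisplatin, and 0.825, 1.02 and 1.08 in control. The cisplatin ratio was below that of every other library, with an exact p of 0.1 against each group. Slc7a8 per Slc3a2 was 0.281 ± 0.0724 with YSJZD and 0.270 ± 0.103 with cisplatin, both below 0.513 ± 0.0364 in control.

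Cltrn, which encodes collectrin, brings B0AT1 and B0AT3 to the surface in the kidney. It stood at 826 ± 349 CPM with YSJZD, 244 ± 94.1 CPM with cisplatin and 1226 ± 318 CPM in control, and fell by 2.33 ± 0.37 in cisplatin against control (adjusted p = 0.000429) and rose by 1.76 ± 0.36 in YSJZD against cisplatin (adjusted p = 0.00459). Slc6a18 per Cltrn in FPKM was 0.705, 0.275 and 0.369 with YSJZD, 1.86, 1.25 and 0.986 with cisplatin, and 0.0738, 0.0549 and 0.111 in control, with no overlap between groups. Slc6a19 per Cltrn was 0.0616 ± 0.0116 with YSJZD, 0.222 ± 0.0873 with cisplatin and 0.0540 ± 0.0231 in control, with cisplatin above the other groups and these overlapping. Anpep, a peptidase of the brush border that binds B0AT1, fell in cisplatin against control (-2.34 ± 0.21, adjusted p = 1.38e-05), rose in YSJZD against cisplatin (1.67 ± 0.21, adjusted p = 0.000366) and was lower in YSJZD against control (-0.67 ± 0.20, adjusted p = 0.0425).

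Per length, the order of the 10 genes differed between groups. With YSJZD the highest were Slc3a1 at 311 FPKM and Slc6a18 at 303 FPKM, whose ranges overlapped, followed by Slc7a7 at 148.5 FPKM. With cisplatin Slc6a18 led at 296 FPKM, above Slc3a1 at 113 FPKM and Slc6a19 at 47.3 FPKM, and Slc7a13 was last at 1.94 FPKM. In control Slc7a13 was first at 546 FPKM, above Slc3a1 at 324 FPKM and Slc6a20b at 127 FPKM, and Slc6a18 was at 75.7 FPKM, in a range that overlapped that of Slc7a9 (74.0 FPKM). Slc6a20a was last with YSJZD at 12.3 FPKM and in control at 7.79 FPKM. The middle places do not form an order: with YSJZD the ranges of neighbours overlapped from Slc7a13 (94.0 FPKM) through Slc7a9, Slc1a1, Slc6a20b and Slc6a19 to Slc7a8 (45.5 FPKM), and with cisplatin from Slc6a19 through Slc7a7, Slc7a8 and Slc1a1 to Slc7a9 (31.9 FPKM). In control the ranges overlapped from Slc6a20b through Slc7a7 to Slc1a1 (93.8 FPKM), and those of Slc7a8 and Slc6a19 overlapped as well.

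Further amino acid and peptide transporters of the proximal tubule were read from the same fit, 10 of 12 of them tested. Over all tested genes, 54.6% were called in cisplatin against control, 26.0% lower and 28.6% higher. In YSJZD against cisplatin 17.4% were higher and 18.0% lower, and in YSJZD against control 9.93% higher and 9.37% lower. With a list median of -0.90 and a smaller share called than over all genes, 4 of the 10 fell and 0 rose in cisplatin against control. These were Slc36a1 (-1.72 ± 0.19), a proton-coupled carrier of small amino acids, Slc6a13 (-1.08 ± 0.14), a GABA and taurine carrier of the basolateral side, the peptide carrier Slc15a2 (-1.86 ± 0.57) and the neutral amino acid carrier Slc6a15 (-2.59 ± 0.54). In YSJZD against cisplatin 5 rose, these 4 and the taurine carrier Slc6a6 (0.61 ± 0.16), and Slc43a2 fell (-0.45 ± 0.14). Slc38a3, Slc6a13 and Slc6a6 rose and Slc36a1 fell in YSJZD against control. Slc6a13 was thus below control with cisplatin and above control with YSJZD, at 125 ± 6.88 CPM with YSJZD, 32.0 ± 4.52 CPM with cisplatin and 67.7 ± 6.80 CPM in control.

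Transporters that most cells use for growth or under stress were also read. Of 12 tested, 9 rose and 1 fell in cisplatin against control, with a median of 1.6. The shares of all tested genes were 28.6% higher and 26.0% lower in that comparison, and 17.4% higher and 18.0% lower in YSJZD against cisplatin. In YSJZD against control 9.93% of all tested genes were higher and 9.37% lower. Slc7a11, the cystine and glutamate exchanger that feeds glutathione synthesis, rose by 2.57 ± 0.39 (adjusted p = 0.000370), and the glutamine carriers Slc1a5 and Slc38a2 rose by 1.71 ± 0.23 and 1.68 ± 0.24. Slc7a5, the light chain LAT1, rose by 1.78 ± 0.29, and Slc1a4 fell by 0.74 ± 0.26. In YSJZD against cisplatin 5 fell (Slc7a11, Slc1a5, Slc7a6, Slc38a1 and Slc43a1) and Slc1a4 rose, with a median of -0.72. Levels were low for several of them, Slc7a11 standing at 0.992 ± 0.404 CPM with YSJZD, 4.92 ± 0.391 CPM with cisplatin and 0.825 ± 0.302 CPM in control. Slc7a5, Slc38a2 and Slc6a9 rose and 0 fell in YSJZD against control. Summed over partners and these groups, 15 genes were called in YSJZD against cisplatin, and 8 or 9 were called when YSJZD replicate 2 or 3 or cisplatin replicate 1 or 2 was left out.

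**Figure D5:**
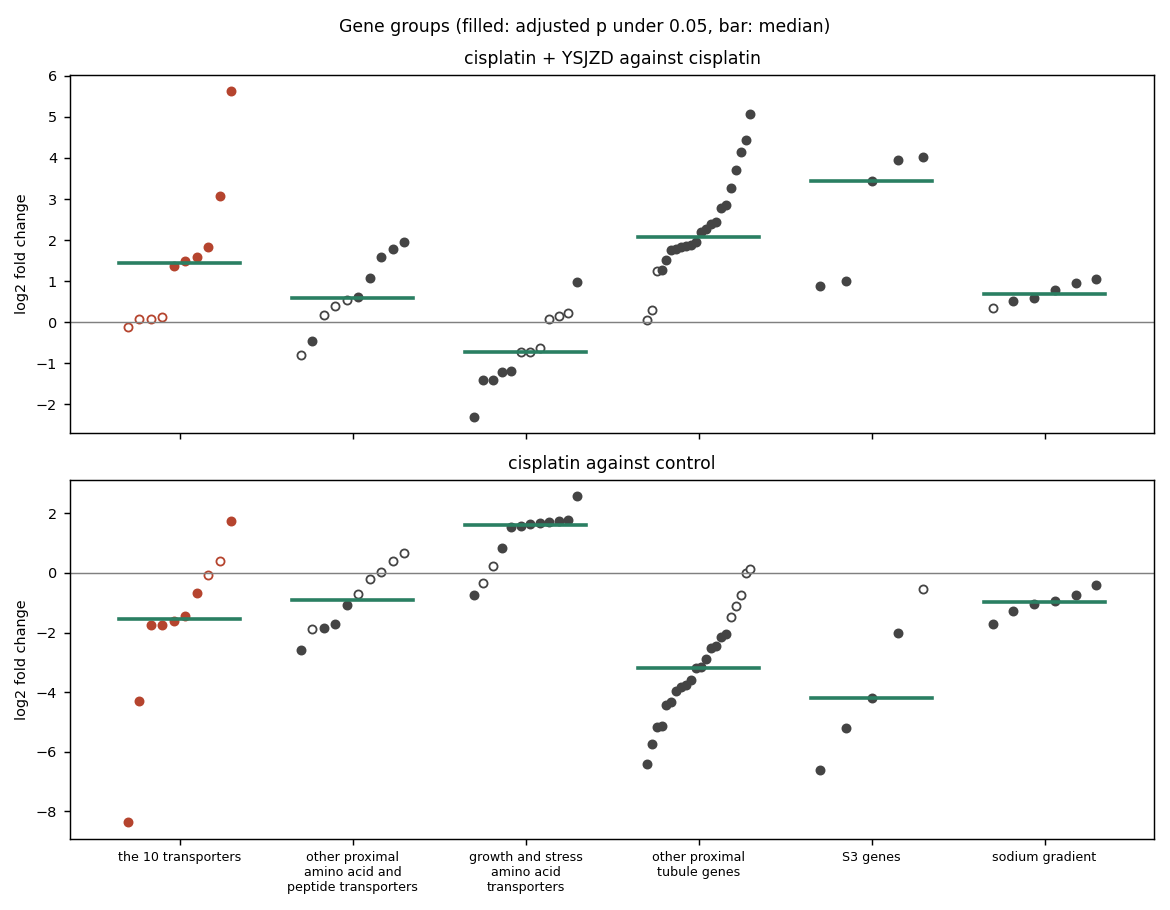
Log2 fold change of single genes in YSJZD against cisplatin (upper panel) and cisplatin against control (lower panel), by gene group; filled points have an adjusted p under 0.05 and bars are medians. The 10 transporters (red) have medians of 1.44 and -1.53, and the growth and stress transporters have medians of -0.72 and 1.6.

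Other proximal tubule genes were read beside the transporters. Of 22, 17 fell and 0 rose in cisplatin against control (median -3.18), 19 rose and 0 fell in YSJZD against cisplatin (median 2.09), and 1 rose and 11 fell in YSJZD against control (median -0.74). Over all tested genes, 26.0%, 18.0% and 9.37% were lower in these comparisons, in the same order. The shares higher were 28.6%, 17.4% and 9.93%. Cubn, a receptor for filtered proteins, and Ggt1, a brush-border enzyme of glutathione breakdown, both fell in cisplatin against control (-3.20 ± 0.20 and -2.88 ± 0.18) and rose in YSJZD against cisplatin (2.40 ± 0.20 and 1.86 ± 0.17). The urate carrier Slc22a12 did likewise (-3.81 ± 0.26 and 3.26 ± 0.26). The 10 transporters had a median nearer to 0 than this list in each comparison, a difference that was not tested. Of 5 genes of the S3 segment, 4 fell with cisplatin, among them Slc22a7 (-6.61 ± 0.52) and Slc22a19 (-5.19 ± 0.31), carriers of organic anions, Cyp7b1 (-4.19 ± 0.59), an oxysterol hydroxylase, and Atp11a (-2.003 ± 0.22), a phospholipid flippase. Of the same list, Slc5a1, a glucose carrier, did not pass (-0.56 ± 0.22). Of 7 genes of the S1 and S2 segments, 5 fell (median -3.97), among them the organic anion carriers Slc22a6 (-3.97 ± 0.26) and Slc22a8 (-5.73 ± 0.73), the phosphate carrier Slc34a1 (-5.15 ± 0.50) and the glucose carrier Slc5a2 (-2.51 ± 0.22). All 7 also belong to the list of 22, so these falls were already counted there. Slc4a4, the basolateral bicarbonate carrier, was at 827 ± 114 CPM with YSJZD, 797 ± 131 CPM with cisplatin and 799 ± 113 CPM in control. Of 6 genes that set the sodium gradient and the membrane voltage, 6 fell in cisplatin against control (median -0.99), with the sodium pump subunit Atp1b1 at -0.94 ± 0.19, the pump regulator Fxyd2 at -1.70 ± 0.19, the sodium and proton exchanger Slc9a3 at -1.29 ± 0.18 and the potassium channel Kcnj16 at -1.03 ± 0.21. In YSJZD against cisplatin 5 of these 6 rose (median 0.69).

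Of the transcription factors of the proximal tubule, Hnf4a fell by 2.00 ± 0.21 in cisplatin against control (adjusted p = 3.16e-05), and Maf (-0.83 ± 0.22) fell as well. Hnf4a (1.33 ± 0.20) and Maf (0.81 ± 0.22) rose in YSJZD against cisplatin, and Hnf4a remained lower in YSJZD against control (-0.67 ± 0.20, adjusted p = 0.0417).

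For each transporter the genes with the nearest profile over the 9 libraries were taken from 9195 genes, by the distance between log2 CPM values centred on the control mean. Slc7a13 was nearest to the organic anion carrier genes Slc22a30 (distance 1.07) and Slc22a28 (1.45). The nearest to Slc3a1 were Kyat3 (0.245), which encodes a kynurenine aminotransferase, and Rab11fip3 (0.378). Slc7a9 had Shmt1 (0.471), which encodes a serine and glycine converting enzyme, and Hint2 (0.571), and Slc7a7 had Depdc1b (0.523) and again Shmt1 (0.630). Slc1a1 was nearest to Invs (0.303) and Mmachc (0.363), and Slc6a20b to Akr1d1 (0.868) and Pbld1 (0.889). Slc6a18 was nearest to Tnfrsf1a (0.455), which encodes a receptor of TNF, and Acot1 (0.483). Slc7a8 was nearest to Ctsh (0.452) and Slc30a2 (0.489), Slc6a19 to Olfml3 (0.665) and Fam135a (0.721), and Slc6a20a to Map3k13 (0.547) and Phf1 (0.547). These distances rank the neighbours of 1 gene.

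Library totals were 15029286 to 16690482 expected counts. Markers of other cells moved with the groups. Their counts stand beside 28.6% of all tested genes higher and 26.0% lower in cisplatin against control. Summed macrophage markers were at 419 to 765 CPM with YSJZD, 1187 to 2699 CPM with cisplatin and 123 to 174 CPM in control, and 10 of 11 rose in cisplatin against control. Cd14 made up most of each YSJZD sum, at 606, 344 and 264 CPM. It was at 442, 691 and 2020 CPM with cisplatin, and 13.4, 10.6 and 12.8 CPM in control. In YSJZD against control 3 of the 11 rose (Cd68, Itgam and Cd14), where 9.93% of all tested genes were higher. The other 8 were not called in that comparison. Summed neutrophil markers were at 3.62 to 8.05 CPM with YSJZD, 22.9 to 58.9 CPM with cisplatin and 1.17 to 1.38 CPM in control, with 5 of 5 higher in cisplatin than in control. Tubular injury genes summed to 705 to 2005 CPM with YSJZD, 3962 to 6889 CPM with cisplatin and 36.8 to 43.7 CPM in control. Genes of the thick ascending limb and distal convoluted tubule summed to 2256 to 4422 CPM with YSJZD, 862 to 1971 CPM with cisplatin and 4875 to 8852 CPM in control, so lower levels with cisplatin were not particular to proximal genes. Fibroblast and pericyte genes were at 211 to 230 CPM with YSJZD, 248 to 768 CPM with cisplatin and 131 to 251 CPM in control, the cisplatin minimum being replicate 3, which also had the lowest endothelial sum of its group (133 CPM). Endothelial sums were at 112 to 129 CPM with YSJZD, below every library of the cisplatin (133 to 278 CPM) and control (206 to 257 CPM) groups. Of 5 endothelial genes, 3 fell in YSJZD against control, where 9.37% of all genes were lower. Collecting duct sums were at 350 to 593 CPM with YSJZD, 264 to 514 CPM with cisplatin and 291 to 508 CPM in control. Yet 4 of 6 genes fell in cisplatin against control: Slc4a1 (-4.76 ± 0.40), Atp6v1b1 (-1.84 ± 0.25), Scnn1g (-1.37 ± 0.27) and Aqp3 (-0.78 ± 0.26). Aqp2 (0.88 ± 0.42) and Foxi1 (0.24 ± 0.29) were not called. Podocyte sums were at 160 to 185 CPM with YSJZD, 195 to 284 CPM with cisplatin and 193 to 256 CPM in control, and 2 of 5 genes, Synpo (1.81 ± 0.21) and Wt1 (1.29 ± 0.23), rose in cisplatin against control. The part of these cells in the transporter results was not tested. With library totals in place of TMM factors the median of all genes in cisplatin against control moved to 0.27, and 66.1% of called genes were higher, against 52.4% with TMM. Between YSJZD and control 75.5% of called genes were higher, against 51.4%.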

How the data were processed

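RNA from 9 kidney cortex samples was sequenced on a DNBSEQ platform, per the labels' protocols. The authors deposited a table of 58075 transcripts with Entrez gene numbers, in which, per the file headers, the read count columns hold counts per transcript. The submitters' processing notes name RSEM 1.3.1, so the deposited values are expected counts. They also name DESeq2 1.4.5 and the human build GRCh38, although the samples are from mice; which aligner and mouse build were used is not given in the sources used here. The other deposited columns have no unit in the header and were taken to be FPKM, since they follow counts over transcript length and their sums differ between libraries (590933 to 653033). Group averages in the same table were left aside.

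Transcript counts of one Entrez gene were added and the sums rounded. The 9 libraries were fitted together in edgeR 4.0.16 (R 4.3.3) with filterByExpr, which removed 4009 genes, TMM factors (0.855 to 1.105), and group as the only term. The common biological coefficient of variation was 0.234. The library totals set the counting error, and the lowest member value rests on 56 counts. The fit was tested on simulated counts with known changes. Errors after ± are SE for log2 values and SD over 3 libraries for levels. The SE was derived from the quasi-likelihood test, as the size of the log2 fold change over the square root of its F value. FPKM was summed per gene, and ratios of partners were tested on the log2 scale by exact permutation over libraries (scipy 1.17.1). All 10 members and their reported partners are named, with up to 4 genes of every other list by smallest p and the 2 nearest profiles of each member among genes of at least 10 CPM in control; other genes named in the lists were taken after their values were seen. Members and lists were chosen with earlier results of these data known. Same-numbered libraries did not deviate together, so replicate numbers were not used to pair samples. Alternatives were DESeq2 size factors, library totals, no filter, DESeq2 1.42.0, limma-voom (limma 3.58.1), the 6 libraries compared, a replicate block, leaving out each library and, for the Slc6a20 paralogs, added counts; transcript fits and recounts of related lists were added after the data were seen. Some genes of these lists and a promoter motif are not reported here.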

Additional observations from a re-analysis of the deposited data

How the results depend on the processing

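Under DESeq2 size factors, library totals, no filter, DESeq2, limma-voom, the 6 libraries compared and each library left out, Slc3a1, Slc7a9, Slc7a13, Slc6a20b, Slc1a1 and Slc7a7 kept their direction and call in cisplatin against control and in YSJZD against cisplatin, Slc7a13 and Slc6a20b kept both in YSJZD against control, and Slc6a18 kept both in cisplatin against control and in YSJZD against control. With library totals the member median in cisplatin against control was -1.30 in place of -1.53, and Slc6a19 turned to 0.16 in cisplatin against control and 0.0069 in YSJZD against control; the alternative shifts all genes upward. Limma-voom gave -0.019 for XM_006517419.3 of Slc6a19 in YSJZD against control, against 0.07. The cause of changes between libraries was not tested.

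With single libraries left out, members called ranged from 7 to 8 in cisplatin against control, from 6 to 7 in YSJZD against cisplatin and from 3 to 4 in YSJZD against control. In the same order, the share of all tested genes called in these fits ranged from 46.3% to 56.2%, from 24.6% to 34.3% and from 11.3% to 22.1%. Genes called in YSJZD against control ranged from 1607 (without control replicate 1) to 3138, with 1686 without control replicate 2, against 2694. Calls in the partner and related transporter lists ranged from 8 to 18 in YSJZD against cisplatin and from 2 to 9 in YSJZD against control against 15 and 8 with all libraries. The lowest counts in the second were 2 without control replicate 1 or 2, 4 without YSJZD replicate 1, and 5 without YSJZD replicate 2 or control replicate 3. Uncalled log2 differences crossed 0: Slc6a19 ranged from -0.15 to 0.019 in cisplatin against control, from -0.63 to 0.13 in YSJZD against cisplatin and from -0.70 to 0.063 in YSJZD against control. In YSJZD against cisplatin Slc6a18 ranged from -0.034 to 0.17, Slc6a20a from -0.054 to 0.36 and Slc7a8 from -0.13 to 0.36. Log2 ratios in the same comparison ranged from -0.078 to 0.30 for Slc7a9 per Slc3a1, from -0.25 to 0.35 for Slc7a8 per Slc3a2 and from -0.54 to 0.22 for Slc6a19 per Slc6a18. Between YSJZD and control Slc7a7 per Slc3a2 ranged from -0.26 to 0.044 and XM_006517419.3 of Slc6a19 from -0.33 to 0.24.

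Replicate numbers did not pair the samples, with correlations of deviations between same-numbered libraries from -0.218 to 0.0615. With the replicate number as a block, 7347, 4590 and 2367 genes were called in cisplatin against control, YSJZD against cisplatin and YSJZD against control, and among the members the block ended the Slc1a1 call in YSJZD against control (adjusted p = 0.0660) and no other. The lowest member values, those of Slc7a13 with cisplatin, rest on 56 to 71 counts, and with 3 libraries a group no permutation test could pass the threshold.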
